A study of Macaca mulatta with 24 samples.

Results

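The 10 genes described here are receptors of the epidermal growth factor (EGF) family (EGFR, ERBB2 and ERBB3), EGF-like ligands (AREG, EREG, HBEGF and TGFA) and inhibitors that the pathway induces against itself (DUSP6, SPRY2 and SPRY4). They were taken by symbol from a table of 35432 genes, in which all 10 were found once. A gene was tested when it reached a normalized count of 10 in at least 4 of 24 libraries, and 9 of the 10 did. EREG did not.

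EGF-like ligands are made as membrane-bound precursors that proteases cut loose from the cell surface. They bind EGFR, which pairs with itself or with ERBB2 or ERBB3 and signals through Ras and the kinase ERK. ERK activity induces the genes of its own inhibitors, among them the ERK phosphatase DUSP6 and the Sprouty proteins SPRY2 and SPRY4, so the RNA of these genes is often read as a trace of pathway output. In airway epithelium the pathway is known for roles in wound repair, basal cell proliferation and mucin production.

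The cells were primary tracheobronchial epithelium of 4 adult female rhesus macaques (S1 to S4), aged 5463, 2930, 2238 and 1128 days, so that an effect of age is not separable from an effect of animal. They were grown to confluence on Transwell inserts and differentiated at the air–liquid interface in equal parts of BEGM and DMEM with retinoic acid. BEGM is a bronchial epithelial growth medium that is commonly supplied with EGF, and the labels do not say whether EGF was added. Each exposure lasted 6 hours a day, to filtered air or to whole wood smoke that had been diluted. The 6 groups held 4 libraries each, 1 per animal. Either exposure was sampled at 1 day, at 5 days, and again 7 days past the fifth day (recovery). The labels record no other treatment and no batch, and nothing says whether a library holds 1 insert or several.

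Values are normalized counts, scaled between libraries by the authors but not by gene length, so levels are compared between libraries and never between genes. Totals per library were 11.8 to 15.2 M normalized counts, and the value of 1 read was estimated at 0.726 to 1.60. The fibroblast marker LUM and the endothelial marker CDH5 were listed at 0 in 24 of 24 libraries and PTPRC of leukocytes in 22, while markers of basal and multiciliated cells were present in every library. Other markers of those cell types were present: LYZ, which airway secretory cells also make, at 1471 to 4679 normalized counts, CD68 at 194 to 932, VWF at 50.9 to 120.9, PECAM1 at 11.8 to 179.8 and COL1A1 at 0.982 to 33.9. Their part in the results was not tested. Changes are differences of log2(value + 1), tested with limma in one fit of all 24 libraries, and a gene is said to rise or fall only when its Benjamini-Hochberg adjusted p over 14062 genes was under 0.05. Because each animal gave a library to every group, the fit was also run with animal as a block. RNA comes from whole cultures, so fewer cells of a type and less RNA per cell cannot be told apart.

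The air library of S1 at 5 days, called the outlying control below, stood apart. Its median r to the rest was 0.860, where each other library had 0.931 to 0.956. It had the highest total, 15.2 M normalized counts against 11.8 to 13.5 M. The value of 1 read was highest in it, at 1.60 against 0.726 to 1.28. Its approximate depth was the lowest, 9.51 M reads against 10.0 to 17.4 M. In it EGFR lay at 163 against 1018 to 1204 in the other 5-day air libraries, 6.91-fold below their mean, and TGFA lay at 30.7 against 161 to 245. AREG (142 against 46.5 to 92.5) and HBEGF (125 against 23.6 to 42.3) lay above the other 5-day air libraries. At 5 days the smoke effects of EGFR and TGFA have opposite signs with and without it, and the SE of EGFR at every time was 0.39 with it and 0.10 to 0.11 without it. Results are therefore given with it and, with animal as a block, without it.

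After the recovery week most ligand and feedback genes had lower values in the cultures that had received smoke. DUSP6, SPRY4, HBEGF, AREG, TGFA and EGFR were lower in smoke in 4 of 4 animals, whereas ERBB2 and ERBB3 were within 2% of air. Of all genes tested, 19.4% were lower in 4 of 4 animals. The median log2 difference of the 9 tested genes was −0.57, against 0.01 for all genes tested, and 9 of 9 were below 0 against 48.8% of all genes. None of the 9 passed in the fit without a block, in which 0.242% of all genes were called. In that fit 2 of the 9, and 8.51% of all genes, had p under 0.05 before adjustment. With animal as a block 1 of 9 fell, where 3.41% of all genes were called and 2.28% fell. With the block and without the outlying control 5 of 9 fell, where 18.8% of all genes were called and 10.1% fell.

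**Figure D1:**
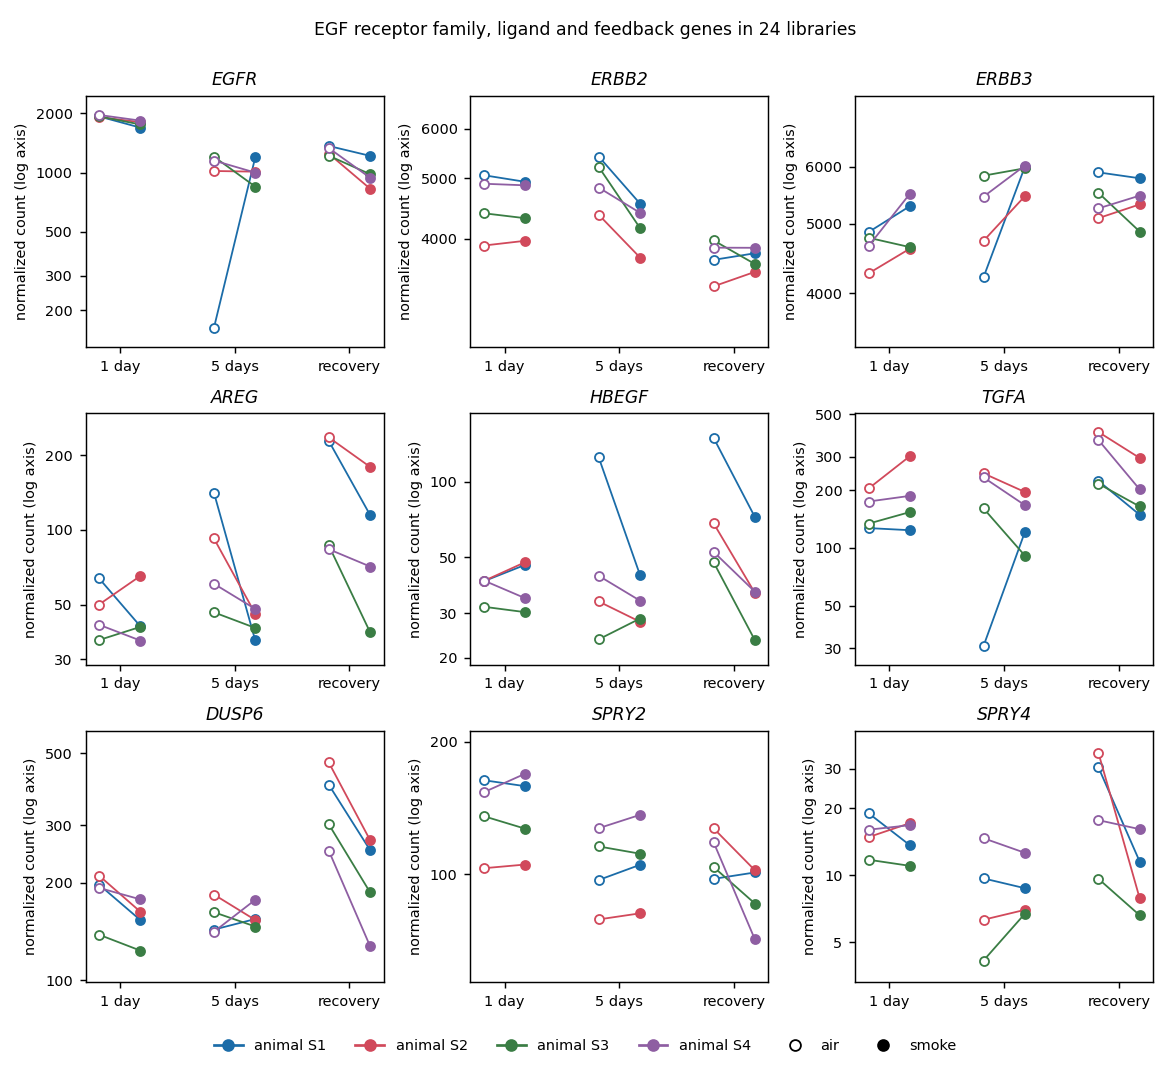
Normalized counts (log axis) of the 9 tested genes at 1 day, 5 days and recovery, with open points for air, filled points for smoke and a line joining the libraries of 1 animal. After recovery every line for AREG, HBEGF, TGFA, DUSP6, SPRY4 and EGFR slopes down, and at 5 days the air library of S1 is the lowest for EGFR (163) and TGFA (30.7).

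Among the feedback genes, DUSP6 (ENSMMUG00000054968), the phosphatase that inactivates ERK in the cytoplasm, was the 1 gene of 9 that passed with animal as a block and all libraries. After recovery it stood at 400, 468, 302 and 251 normalized counts in air (S1 to S4) and at 252, 270, 187 and 127 in smoke. Each smoke value was below the air value of its own animal, but the groups overlapped between the lowest air library (S4) and the smoke libraries of S1 and S2. Means were 355 ± 97.5 in air and 209 ± 65.1 in smoke (SD, n = 4), a log2 fold change of −0.78 ± 0.22 (SE) with a limma adjusted p of 0.180. DUSP6 fell with animal as a block (SE 0.18, limma adjusted p = 0.0221), and this call was kept without S1 and lost without S2 (adjusted p = 0.161), S3 (0.176) or S4 (0.0841). With the block and without the outlying control the adjusted p was 0.00326. In a fit with animal as a block on the 8 recovery libraries alone, which does not use the 5-day libraries, it was 0.000365, and 18.8% of all genes were called. Without a block none of the 9 genes passed in those 8 libraries alone.

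At the earlier times DUSP6 differed little between smoke and air. At 1 day it stood at 197, 210, 138 and 193 in air against 153, 163, 124 and 178 in smoke, lower in 4 of 4 animals, as were 15.2% of all genes (log2 −0.25 ± 0.22, adjusted p = 1.00). At 5 days the values were 143, 184, 162 and 141 in air and 155, 154, 147 and 177 in smoke, with no common direction (log2 0.01 ± 0.22, 95% interval −0.44 to 0.46). In air cultures DUSP6 rose from 5 days to recovery (log2 1.13 ± 0.22, adjusted p = 0.00283), with no overlap between the groups, and it kept this call with each animal or library left out in turn. It did not pass in a fit of the 8 air libraries of those times alone with animal as a block (adjusted p = 0.0964). The smoke cultures went from 147 to 177 at 5 days to 127 to 270 after recovery. The change of the smoke effect from 5 days to recovery was −0.79 ± 0.31 and did not pass (adjusted p = 0.319, or 0.0957 with animal as a block).

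SPRY4 (ENSMMUG00000014175), a Sprouty protein that dampens Ras and ERK signalling, ranged from 4.13 to 35.5 normalized counts over the 24 libraries, close to the filter. After recovery it stood at 30.5, 35.5, 9.63 and 17.7 in air and at 11.5, 7.86, 6.60 and 16.1 in smoke. The difference was wide in S1 and S2 (log2 −1.34 and −2.04) and narrow in S3 and S4 (−0.48 and −0.13). Its log2 fold change was −0.997 ± 0.396 (limma adjusted p = 0.422, or 0.0736 with animal as a block), and it fell only with the block and without the outlying control (adjusted p = 0.0292). On the 8 recovery libraries alone it did not pass (adjusted p = 0.0762).

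In air cultures SPRY4 rose from 5 days (9.66, 6.30, 4.13 and 14.6) to recovery (log2 1.30 ± 0.40, limma adjusted p = 0.0389, or 0.00444 with animal as a block), and the fit without a block lost this call without any 1 animal (adjusted p up to 0.227) and without 5 of the 8 single libraries. In the 8 air libraries of these times alone, with the block, it did not pass (adjusted p = 0.204). It also fell from 1 day to 5 days with animal as a block (log2 −0.86, limma adjusted p = 0.0491, or 0.181 without a block), from 18.9, 14.8, 11.7 and 16.0 at 1 day. That call did not hold without the outlying control (adjusted p = 0.0760).

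SPRY2 (ENSMMUG00000018292), a second Sprouty gene, was not lower in all animals. After recovery it stood at 97.6, 127, 104 and 118 in air and 101, 102, 85.8 and 71.2 in smoke, lower in S2, S3 and S4 and not in S1. The log2 fold change was −0.32 ± 0.20 and did not pass in any of the fits (adjusted p = 0.765, 0.392 with animal as a block and 0.211 when the outlying control was omitted as well). At 1 day (0.01 ± 0.20) and 5 days (0.05 ± 0.20) the estimates were near 0.

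**Figure D2:**
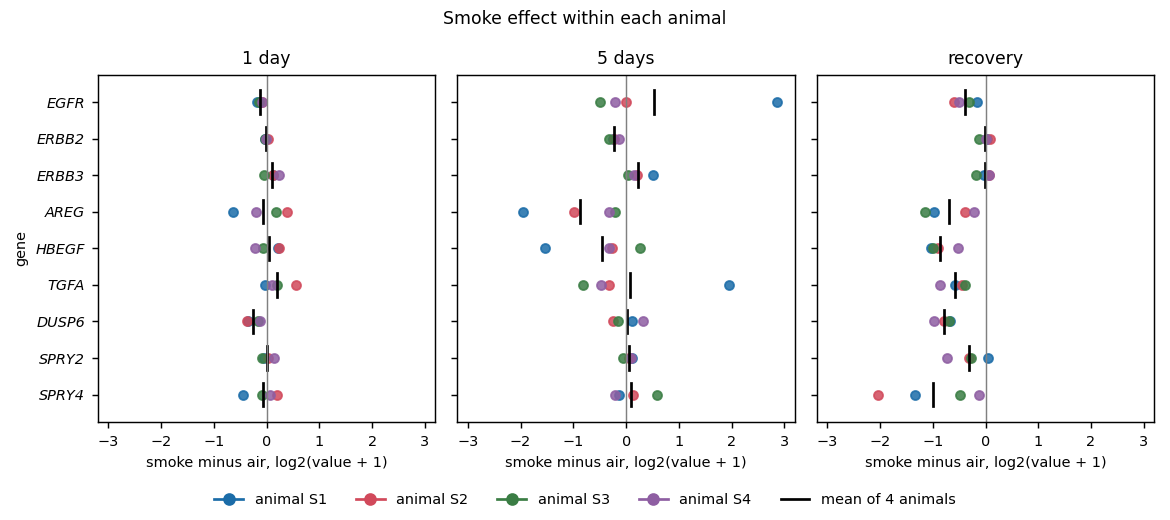
Smoke minus air in log2(value + 1) for each animal (coloured points) and their mean (black bar), by gene and time. After recovery all 4 animals lie below 0 for 6 of 9 genes, and at 5 days the difference of S1 lies far from the other animals for EGFR (2.87) and TGFA (1.94).

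Among the ligands, HBEGF, TGFA and AREG had lower values in smoke in 4 of 4 animals after recovery. HBEGF (ENSMMUG00000060742) encodes heparin-binding EGF-like growth factor, a ligand of EGFR that epithelia make after injury. It stood at 150, 68.4, 47.9 and 52.7 in air and 72.4, 36.2, 23.4 and 36.5 in smoke. The air library of S1 was far above the other air libraries, and the smoke library of S1 lay above all 3 of them, yet the differences within animals were −1.04 to −0.90 in S1, S2 and S3 on the log2 scale and smaller in S4 (−0.52). The log2 fold change was −0.86 ± 0.42 (limma adjusted p = 0.586, or 0.0867 with animal as a block). HBEGF fell with the block and without the outlying control (adjusted p = 0.00986), and in the 8 recovery libraries alone (0.00746).

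TGFA (ENSMMUG00000010591), transforming growth factor alpha, a classical autocrine ligand of EGFR, stood after recovery at 224, 404, 217 and 367 in air and 149, 295, 165 and 202 in smoke. Animals S2 and S4 had the highest values under air, and all 4 animals were lower under smoke, with log2 differences of −0.86 to −0.39. The log2 fold change was −0.57 ± 0.47 (limma adjusted p = 0.867, or 0.364 with animal as a block). TGFA fell once the outlying control was omitted as well (SE 0.11, adjusted p = 0.00184) and in the 8 recovery libraries alone (adjusted p = 0.00375). Its smoke effect differed between recovery and 1 day, when smoke was higher in 3 of 4 animals (302 against 205 in S2), by −0.78 ± 0.16 with the block and without that library (limma adjusted p = 0.00504, where 9.2% of all genes were called). With all libraries 0 of 9 genes passed that test, TGFA included (adjusted p = 1.00, or 0.532 with animal as a block, where 0.00711% and 1.22% of all genes were called).

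AREG (ENSMMUG00000002314), amphiregulin, a low-affinity ligand of EGFR made by airway epithelium varied widely between animals. After recovery it stood at 229, 237, 86.6 and 83.6 in air and 115, 180, 38.6 and 71.2 in smoke, so the groups overlapped widely and S1 and S2 were high under both exposures. All 4 animals were lower under smoke, by log2 −0.99, −0.39, −1.14 and −0.23, with a mean of −0.69 ± 0.42 (limma adjusted p = 0.753, or 0.228 with animal as a block). AREG did not pass without the outlying control either (0.0808 with the block), but fell in the 8 recovery libraries alone with animal as a block (adjusted p = 0.0148).

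AREG also was the only ligand of the 3 tested with 1 direction in all 4 animals at 5 days. It stood at 142, 92.5, 46.5 and 60.7 in air and 35.8, 45.9, 40.2 and 48.0 in smoke. Smoke libraries lay in a narrow range at the foot of the air range, lower in 4 of 4 animals (background 9.91%), and the log2 fold change of −0.87 ± 0.42 did not pass (adjusted p = 0.545, or 0.129 with animal as a block). Without the high air library of S1 it was −0.67 ± 0.30 with the block (adjusted p = 0.194).

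EREG (ENSMMUG00000058506), epiregulin, was at or below the value of a few reads. It was listed at 0 in 14 of 24 libraries, in 4 of 4 smoke libraries at 1 day, and its highest values were in air after recovery (5.43, 3.36, 2.87 and 0, against 0, 0.983, 0 and 2.29 in smoke). An exact permutation test of 4 against 4 libraries (two-sided, smallest possible p 0.0286) gave p = 0.171 after recovery, 0.429 at 1 day and 1.00 at 5 days, with adjusted p over the 3 times of 0.514, 0.643 and 1.00. With 4 libraries a group, a difference at 1 time alone cannot pass this test after adjustment over the 3 times, so the test does not show whether the groups differed.

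Among the receptors, only EGFR (ENSMMUG00000022394), the receptor that these ligands bind, was lower in smoke in 4 of 4 animals after recovery. It then stood at 1364, 1247, 1217 and 1332 in air and at 1215, 828, 981 and 941 in smoke. Every smoke library was below every air library, as for 4.37% of all genes tested (1 of these 9), and the closest pair was the smoke library of S1 and the air library of S3. The log2 fold change was −0.39, with an SE of 0.39 in the fit of all libraries and 0.10 when the outlying control was omitted. With all libraries it did not pass (limma adjusted p = 0.913, or 0.664 with animal as a block). EGFR fell without that library (limma adjusted p = 0.0451 without a block, where 2.5% of all genes were called, and 0.00300 with it) and in the 8 recovery libraries alone with animal as a block (0.00483).

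At 1 day EGFR was also lower in every smoke library than in any air library (1 of 9, against 2.59% of all genes), at 1690, 1801, 1753 and 1834 against 1927, 1912, 1928 and 1960. The difference was small (log2 −0.13 ± 0.39, adjusted p = 1.00), and it passed only in a fit with animal as a block on the 8 libraries of that day (SE 0.03, limma adjusted p = 0.0382), in which 9.11% of all genes were called. At 5 days the smoke value of S1 (1194) lay above its air value (163), and those of S2 to S4 (1010, 848 and 999) lay below theirs (1018, 1204 and 1151). The log2 fold change was 0.54 ± 0.39 with that library and −0.20 ± 0.09 without it and with the block (adjusted p = 0.223).

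EGFR also differed between times in the air cultures. It fell from 1 day to 5 days (log2 −1.48 ± 0.39, limma adjusted p = 0.0358, or 0.0147 with animal as a block, where 3.98% and 19.4% of all genes were called), with no overlap of the groups (12.6% of all genes). Without the outlying control the fall was −0.75 ± 0.09 with the block (adjusted p = 2.2e-05, where 18.6% of all genes were called). The call without a block was lost without any 1 of the 1-day air libraries (adjusted p 0.0614 to 0.0928) and without S2, S3 or S4 (up to 0.156), and EGFR did not pass with animal as a block in the 8 libraries alone (0.266).

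ERBB2 (ENSMMUG00000001348), the receptor with no ligand of its own that acts as a partner, stood after recovery at 3701, 3358, 3976 and 3871 in air and 3792, 3542, 3645 and 3869 in smoke. These ranges overlapped almost fully, and the 95% interval of the log2 difference was −0.22 to 0.21 (−0.14 to 0.13 with animal as a block). At 5 days ERBB2 was lower in smoke in 4 of 4 animals, at 4552, 3733, 4161 and 4401 against 5414, 4370, 5210 and 4829. The log2 fold change of −0.23 ± 0.10 did not pass (adjusted p = 0.496, or 0.0716 with animal as a block). ERBB2 fell with the block and without the outlying control (−0.22 ± 0.06, limma adjusted p = 0.0317), as did TGFA at 5 days (−0.48 ± 0.13, adjusted p = 0.0264), where 6.26% of all genes were called. With all libraries 0 of the 9 genes passed at 5 days (0.0711% of all genes called, 1.69% with animal as a block), and 2 of 9 and 9.29% of all genes had p under 0.05 before adjustment. In the 8 libraries of 5 days alone with animal as a block, 0% of all genes passed.

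In air cultures ERBB2 fell from 5 days to recovery (log2 −0.41 ± 0.10, limma adjusted p = 0.0149), lower in 4 of 4 animals with no overlap of the groups. The call without a block was lost without S1 (adjusted p = 0.0502), S3 (0.0833) or S4 (0.0911) and without the recovery air library of S2 (0.0546). With animal as a block ERBB2 fell too (adjusted p = 0.000262), but not in the 8 libraries alone (0.178). When library totals replaced the authors' scaling, ERBB2 no longer passed in the fit without a block.

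ERBB3 (ENSMMUG00000020758), a receptor with weak kinase activity that binds neuregulins, stood at 5 days at 5997, 5458, 5968 and 6019 in smoke and 4211, 4732, 5828 and 5450 in air. It was higher in 4 of 4 animals, as were 9.54% of all genes (log2 0.22 ± 0.10, adjusted p = 0.506, or 0.197 with animal as a block), mostly in S1 (0.51). Without the outlying control the estimate was 0.11 ± 0.06 (adjusted p = 0.327 with the block). After recovery the interval of the difference was −0.23 to 0.19.

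**Figure D3:**
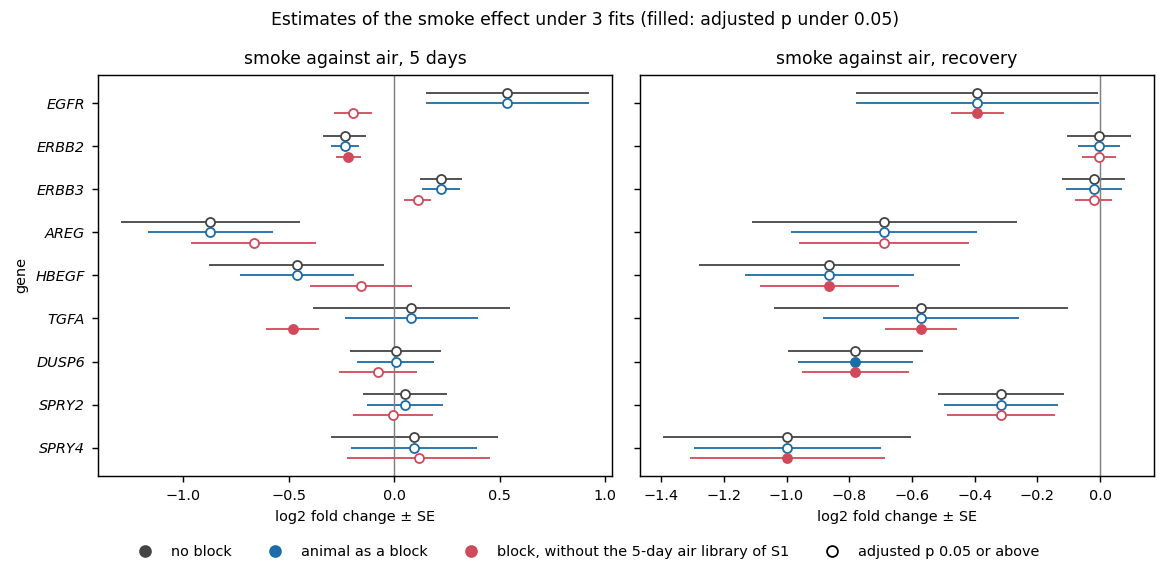
Log2 fold change of smoke against air with its SE for 9 genes at 5 days and after recovery, in the fit without a block, with animal as a block, and with the block but without the outlying control (filled points have an adjusted p under 0.05). After recovery the estimates are the same in all fits, their errors are smaller in the last fit than in the first, and filled points go from 0 to 1 to 5, while at 5 days EGFR and TGFA change sign.

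The air cultures themselves differed between times. From 5 days to recovery in air, 3 of 9 genes were called without a block (11.3% of all genes), namely DUSP6 and SPRY4 higher and ERBB2 lower. The groups did not overlap for 3 of 9 (15.8%), which were DUSP6, ERBB2 and EGFR, whereas those of SPRY4 overlapped. EGFR, at 163 to 1204 at 5 days and 1217 to 1364 after recovery, was not called without a block. With animal as a block 5 were called (28.4%), with AREG (log2 0.84, limma adjusted p = 0.0405) and TGFA (1.15, adjusted p = 0.0120) also higher. None of these 5 passed in the 8 air libraries of these times alone with the block, where the adjusted p was 0.0964 for DUSP6, 0.157 for AREG, 0.178 for ERBB2, 0.204 for SPRY4 and 0.222 for TGFA. Without the outlying control HBEGF was higher too (0.95 ± 0.24, adjusted p = 0.00638, where 27.1% of all genes were called), and TGFA was at 0.59 ± 0.13 (adjusted p = 0.00148). This comparison shares the recovery air libraries with that of smoke against air. For HBEGF the smoke effect changed by −0.40 ± 0.59 from 5 days to recovery (adjusted p = 0.849) and for SPRY4 by −1.09 ± 0.56 (adjusted p = 0.471). None of the 9 genes passed this test without a block (0.348% of all genes did, and 1 of the 9 had p under 0.05 before adjustment), with it (3.56%), or with it and without the outlying control (11.3%). From 1 day to 5 days 0 of 9 passed (0.0142%, or 0.0427% with animal as a block).

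Markers of basal and of proliferating cells moved between the same air cultures. The summed normalized counts of 8 basal markers were 59432 to 75039 at 1 day, 37596 to 58524 at 5 days and 61194 to 74333 after recovery, so the 5-day libraries lay below both other times. Without a block 2 of the 8 basal markers fell from 1 day to 5 days (3.98% of all genes called) and 4 rose from 5 days to recovery (11.3%). With animal as a block 4 fell from 1 day to 5 days (19.4%). From 5 days to recovery 6 rose and 1 fell (log2 −0.88) with the block, where 28.4% of all genes were called. The summed counts of 6 proliferation markers were 1537 to 3483 at 1 day, 247 to 771 at 5 days and 680 to 730 after recovery. From 1 day to 5 days 3 of the 6 fell without a block (3.98% of all genes called) and 6 with it (19.4%). Their part in the changes of the EGF family and feedback genes between times was not tested.

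At 1 day none of the 9 genes passed in the fit of all libraries, without or with a block (0.0284% and 0.0782% of all genes), nor with the block and without the outlying control (0.96%). Before adjustment 0 of 9 had p under 0.05 in the fits of all libraries (1.88% of all genes without a block). AREG, HBEGF, SPRY2 and SPRY4 were each lower in 2 of 4 animals, and their estimates lay between −0.07 and 0.04. The interval for AREG reached from −0.95 to 0.81, which includes its value after recovery (−0.69).

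Other genes of the pathway were described from lists drawn up for this purpose. Of 5 tested further receptors and ligands (NRG1, NRG2, NRG4, BTC and ERBB4), 0 passed in smoke against air at any time, without a block or with it. With the block and without the outlying control, the ligands BTC (0.62 ± 0.20, limma adjusted p = 0.0344) and NRG2 (0.79 ± 0.26, adjusted p = 0.0399) were higher in smoke after recovery, each in 4 of 4 animals, against lower values of HBEGF and TGFA. That makes 2 of 5, where 18.8% of all genes were called. In the 8 recovery libraries alone with the block NRG2 passed (adjusted p = 0.0374) and BTC did not (0.0561). Of the 16 adaptor, Ras and kinase genes between receptor and ERK, 0 passed in smoke against air without a block. With it only the adaptor SHC1 fell, at 5 days (log2 −0.29, adjusted p = 0.0436), which is 1 of 16 where 1.69% of all genes were called, and the median of the 16 after recovery was −0.05. Of 4 genes for ligand shedding, RHBDF2, a partner of the protease ADAM17, fell at 5 days with the block (−0.44, adjusted p = 0.0340), 1 of 4 against the same 1.69%. With the block and without the outlying control, 1 of the 16 and 1 of the 4 fell at 5 days (6.26% of all genes called). After recovery in that fit 1 of the 16 rose and 1 of the 4 fell (18.8% called).

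Genes that ERK output induces were called at 5 days and after recovery. The list holds the 7 other genes of a published set of 10 that reads ERK pathway activity, of which DUSP6, SPRY2 and SPRY4 are the rest. At 5 days the receptor EPHA2 fell (log2 −0.44 ± 0.08, limma adjusted p = 0.0153), the only gene of these lists called in smoke against air without a block. It kept this call in 6 of 12 omissions of 1 library or animal and lost it without S2, S3 or S4 (adjusted p up to 0.497), without the air library of S2 and without the smoke libraries of S1 and S4. With animal as a block the cell cycle gene CCND1 (−0.47, adjusted p = 0.0225) and the ERK phosphatase DUSP4 (−0.51, adjusted p = 0.0408) fell as well, which makes 3 of 7 where 1.69% of all genes were called. The 5-day calls of EPHA2, CCND1, DUSP4, SHC1 and RHBDF2 with the block were each kept in 1 of 4 omissions of an animal, and none passed in the 8 libraries of 5 days alone. After recovery ETV5, a transcription factor (−1.03, limma adjusted p = 0.0462), and PHLDA1 (−0.91, adjusted p = 0.0246) fell with the block. That makes 2 of 7 where 3.41% of all genes were called. Both calls were kept without S1 and lost without S2, S3 or S4 (adjusted p up to 0.358). In the 8 recovery libraries alone with the block ETV5 (adjusted p = 0.00775) and PHLDA1 (0.000106) passed, where 18.8% of all genes were called. EPHA2 was at 0.20 ± 0.08 after recovery. At 1 day EPHA2 was at 0.31 ± 0.08, higher in smoke in 4 of 4 animals (the share of all genes is not given here). It did not pass at that time without a block (limma adjusted p = 0.565) or with it (0.179), and rose with the block and without the outlying control (0.00918) and in the 8 libraries of 1 day alone with the block (0.000207). Its smoke effect fell by 0.75 on the log2 scale from 1 day to 5 days (adjusted p = 0.00843) and rose by 0.64 from 5 days to recovery (adjusted p = 0.00703), both without a block, where 0.0142% and 0.348% of all genes were called. Both comparisons share the 5-day libraries, and both calls were lost without S2, S3 or S4 (adjusted p up to 0.96 and 0.512). Scaled by library totals, the change to 5 days did not pass (−0.59, adjusted p = 0.424), nor did the 5-day difference itself (−0.37, adjusted p = 0.103). The median of the 7 was −0.44 at 5 days and −0.29 after recovery, against 0.01 for all genes at both times. The 7 did not share 1 direction, with 5 below 0 and 2 above it at both times. Estimates ran from −0.67 to 0.78 at 5 days and from −1.03 to 0.26 after recovery. With the block and without the outlying control, 4 of the 7 fell at 5 days (6.26% of all genes called). After recovery 4 fell and 1 rose in that fit (18.8% called). Of 10 tested further feedback inhibitors, 0 passed in smoke against air without a block and DUSP4 alone with it. With the block and without the outlying control, 1 of these 10 fell at 1 day, 3 at 5 days and 3 after recovery. The shares of all genes called there were 0.96%, 6.26% and 18.8%.

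**Figure D4:**
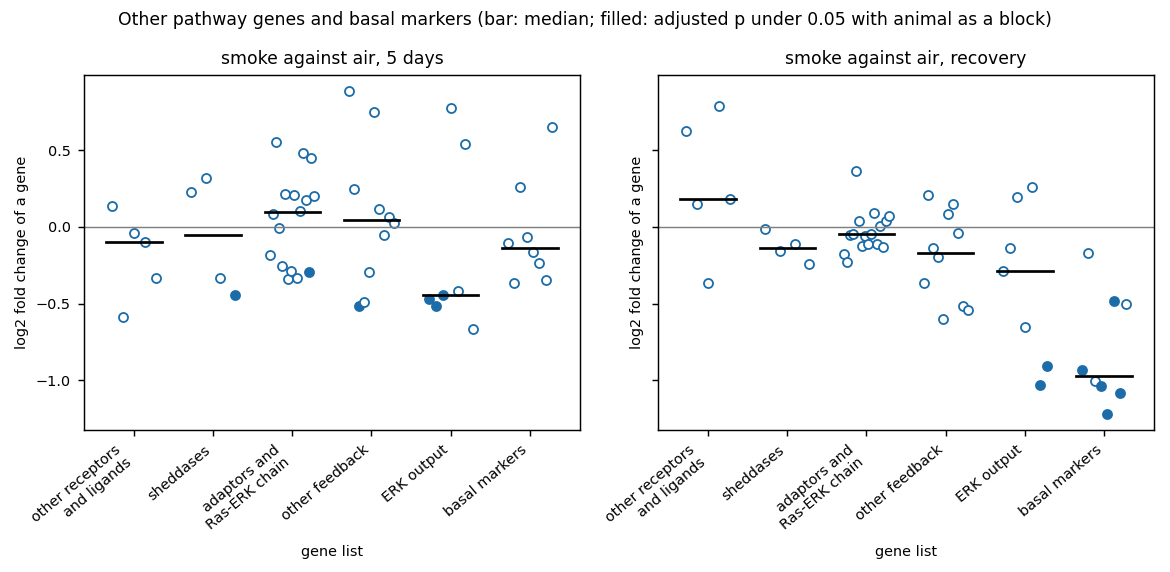
Log2 fold change of smoke against air for each tested gene of 5 pathway lists and of the basal cell markers at 5 days and after recovery, with the list median as a bar and filled points for an adjusted p under 0.05 with animal as a block. After recovery the basal markers have the lowest median of the lists drawn (−0.97), and the genes between receptor and ERK centre near 0 (−0.05). The proliferation markers, not drawn, had a median of −1.01.

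Markers of basal cells, the progenitors of airway epithelium in which EGFR is known to be high, had lower values in smoke after recovery. Of 10 listed basal markers 8 were in the table. Their summed level after recovery was 61194 to 74333 in air and 24986 to 44482 in smoke, without overlap, and 8 of 8 had an estimate below 0. KRT5 (−1.22 ± 0.22, limma adjusted p = 0.0173) and ITGB4 (−1.04 ± 0.16, adjusted p = 0.00912) fell without a block, where 0.242% of all genes were called. KRT5 lost that call without S2, S3 or S4 (adjusted p up to 0.611) and without 5 of 8 single libraries, and ITGB4 lost it without S2, S3 or S4 (up to 0.216). With animal as a block 5 of the 8 fell, where 3.41% of all genes were called. With the block and without the outlying control 7 fell (18.8% called). In the blocked fit KRT5 kept its call in 4 of 4 omissions of an animal (limma adjusted p up to 0.0292) and ITGB4 in 3 of 4 (up to 0.0503). Summed proliferation markers (6 of 6 in the table) were at 680 to 730 in air and 194 to 547 in smoke after recovery, and multiciliated markers (8 of 8) at 7850 to 17888 and 8880 to 25029. At 1 day and 5 days the ranges of the basal sum overlapped between smoke and air (at 1 day 60014 to 75084 in smoke and 59432 to 75039 in air). The summed proliferation markers at 5 days were at 314 to 1558 in smoke and 247 to 771 in air, and 6 of 6 estimates were above 0. At 1 day they were at 1201 to 3166 in smoke and 1537 to 3483 in air, and 6 of 6 were below 0. None of the 6 was called at 1 day or 5 days, without a block or with it. The part of the basal and proliferation markers in the lower ligand, feedback and EGFR values after recovery was not tested.

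The genes whose log2 values followed a receptor, a ligand and a feedback gene most closely over the 24 libraries were found by Pearson correlation, as a description, since the libraries share 4 animals and 6 groups. For AREG they were MAFF (r = 0.888), TNFRSF12A (0.873) and JAML (0.848). DUSP6 had KIFBP (0.859), IL4R (0.856) and CCDC43 (0.854), and within the 10 genes its closest was AREG (0.738). Without the outlying control the order for DUSP6 was IL4R (0.905), KIFBP (0.869) and SENP5 (0.868). EGFR had MED13L (0.971), NIPBL (0.971) and HTT (0.971), and this ranking changed without the outlying control. The closest genes to EGFR were then KMT2C (0.958), NDST1 (0.956) and IGF1R (0.948), and MED13L was at 0.903. With the 6 group means taken out, the closest were ARHGEF12 for EGFR, RRAGC for AREG and PITRM1 for DUSP6. That ranking includes the outlying control and was not run without it. For AREG, MAFF (0.879) and TNFRSF12A (0.873) stayed first in the 23 other libraries.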

How the data were processed

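The deposited table holds 1 column per library. The authors' values are a normalized signal per gene (called normalized counts), not whole numbers, and their median ratio to the gene-wise geometric mean was 1.01 in every library. The scaling method and genome build: not given in the sources used here. FastQC, Trim Galore, Bowtie2 and RSEM are named in the submitters' processing notes, and poly-A selection in the labels' protocols. Of 35432 genes, 14062 passed the filter (10 or more in 4 or more libraries). Among values under 12, 81.9 to 84.0% fell within 0.1 of a whole multiple of the library's step, so whole reads were not recovered and tests for counts were not used. Dividing totals by the step gave approximate depths of 9.51 to 17.4 M reads. Counting error cannot be computed from such values, so precision is the spread between libraries. Without a block this includes the spread between animals. With animal as a block it is the spread left once differences between animals are taken out.

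Log2(value + 1) was fitted with limma 3.58.1 in R 4.3.3 (moderated variances with a mean trend, 6 group means, two-sided tests). The fit was also run on simulated data with independent normal noise and no outlying library. That run does not show how the fit behaves with a library such as the outlying control. Libraries of an animal are pairs by label. Deviations from group means correlated at 0.303 to 0.804 within animals and −0.443 to 0.0149 between animals. The 10 genes, the lists and the omission of the S1 air library at 5 days were chosen with earlier results of these data known. All 10 genes are named, as are list genes called in either fit at any smoke comparison, or otherwise the 2 with the smallest p. BTC and NRG2 are named by that last rule. Examples among the cell markers were chosen after their values were seen. Alternatives were the block, the omissions, the libraries of a comparison alone, a pseudocount of 5, no filter, a filter at 50 and scaling to library totals. No sequences or chromosome positions are printed, since the tables used here hold none of the build of the files.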

Additional observations from a re-analysis of the deposited data

Results flagged for a closer look

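In groups of 4, a library was singled out when its gap to the nearest other on the log2 scale was too large a share of the group's range by Dixon's criterion. Chance does this in about 1 in 20 groups, and 4 of 59 groups met it. EGFR was at 163 in the 5-day air library of S1, against 1018 to 1204 in the others. ERBB3 was at 5458 in the 5-day smoke library of S2, against 5968 to 6019. HBEGF was at 31.8 in the 1-day air library of S3, against 40.2 to 40.5. EREG was at 1.04 in the 5-day air library of S3 and at 0 in the others, about 1 read.

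The difference between smoke and air in EPHA2 differed between times by the test of the change itself, without a block. It changed by −0.75 from 1 day to 5 days and by 0.64 from 5 days to recovery on the log2 scale, each in 4 of 4 animals (limma adjusted p = 0.00843 and 0.00703). Both calls were lost without S2, S3 or S4.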

How the results depend on the processing

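Animal as a replicate block took the number of the 9 tested genes called from 0 to 1 after recovery, from 1 to 2 in air from 1 day to 5 days and from 3 to 5 in air from 5 days to recovery, and changed no other count. The shares of all genes called went from 0.242 to 3.41%, from 3.98 to 19.4% and from 11.3 to 28.4% in the same order. With the block but not the outlying control (S1 in air at 5 days) the counts were 2 at 5 days (6.26% of all genes called), 5 after recovery (18.8%), 1 for the change from 1 day to recovery (9.2%), and 2 and 6 in the air comparisons (18.6% and 27.1%). Without that library and without a block 1 gene was called after recovery (2.5% of all genes). With the libraries of a comparison alone and the block, 1 gene was called at 1 day (9.11% of all genes), 5 after recovery (18.8%), 1 for the change from 1 day to recovery and 0 in both air comparisons, which were 0 without the block too. With no filter 0 genes were called in air from 1 day to 5 days. Leaving out 1 animal or library gave 0 to 2 calls at 5 days and 0 to 4 after recovery (the highest with the block and without S1), and 0 to 1 and 1 to 3 in the air comparisons. Shares of all genes called are not given for these omissions, nor for the change from 1 day to recovery in its libraries alone. Those counts therefore cannot be set against all genes.

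At 5 days, without the air library of S1, the estimates of TGFA (−0.60, or −0.48 with the block), EGFR (−0.16, or −0.20) and DUSP6 (−0.0353, or −0.0770) turned negative, as did SPRY2 with the block (−0.00603), and HBEGF turned to 0.0187 without it. Scaling by library totals turned SPRY2 (−0.0748) and HBEGF (−0.0411) at 1 day, ERBB2 after recovery (0.0158) and ERBB3 in air from 1 day to 5 days (−0.0352). Estimates changed sign when 1 animal or library was left out, mostly those near 0 but also EGFR (0.54) and HBEGF (−0.46) at 5 days. At 1 day these were ERBB2 (−0.0838 to 0.0495), AREG (−0.25 to 0.11), TGFA (−0.0394 to 0.39), SPRY4 (−0.18 to 0.0587), SPRY2 (−0.13 to 0.13) and HBEGF (−0.0560 to 0.16). At 5 days they were TGFA (−0.60 to 0.38), SPRY4 (−0.17 to 0.37), SPRY2 (−0.0755 to 0.18), EGFR (−0.24 to 0.88), DUSP6 (−0.0986 to 0.0957) and HBEGF (−0.77 to 0.0187), and after recovery ERBB2 (−0.0527 to 0.0371) and ERBB3 (−0.0582 to 0.0318). The cause of these changes was not tested. After recovery EGFR, AREG, HBEGF, TGFA, DUSP6, SPRY2 and SPRY4 stayed below 0 under every alternative run. Counts over all genes moved with the fit too: without a block, with it, and with it but not the outlying control, 4, 11 and 135 genes were called at 1 day, 10, 237 and 880 at 5 days, and 34, 480 and 2639 after recovery. Library totals shifted the median log2 change of all genes from 0.00 to −0.14 in air from 1 day to 5 days, where EGFR was at −1.63. Leaving each animal out of the blocked fit, and likeness without the outlying control, were alternatives chosen after seeing the data.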
